A study of Bos taurus with 6 samples.

Results

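The BCL2 family decides whether a cell permeabilises its mitochondria and dies. The genes examined were 10 of its best known regulators, BAX, BAK1, BID, BAD and BCL2L11 on the pro-apoptotic side and BCL2, BCL2L1, BCL2L2, BCL2A1 and MCL1 on the anti-apoptotic side. They were found as every probe set whose single gene symbol in the platform annotation is one of these names, which gave 12 of 24016 probe sets, for 8 of 9155 genes. BID and BCL2L11 had no such probe set and drop out, so BAD alone stands for the BH3-only proteins. BCL2 had 5 probe sets and the other 7 genes had 1 each. No filter on low signal was used, so all 12 entered the test.

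The cells were cumulus cells, the somatic cells around the oocyte, taken from cumulus-oocyte complexes of crossbred cows (Bos indicus x Bos taurus) whose ovaries were collected at slaughter. In 3 arrays (large follicles) the complexes came from follicles of at least 8 mm and were called competent by the submitters. In the other 3 (small follicles) they came from follicles of 1 to 3 mm and were called incompetent. In both groups only complexes with an even, granular cytoplasm and at least 3 compact cumulus layers were kept, the cells were stripped off by pipetting, and RNA came from pools of cells. How many cows or complexes stand behind a pool was not stated, so each p-value reflects only how far these pools differ from one another. Follicle size serves in the study as a stand-in for the capacity of the oocyte to develop.

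As background, BAX and BAK1 are the effectors that form pores in the outer mitochondrial membrane and release cytochrome c. The guardians BCL2, BCL2L1 (BCL-XL), BCL2L2 (BCL-W), BCL2A1 and MCL1 hold the effectors and the BH3-only activators in check. BH3-only proteins such as BAD bind the guardians, and BAD is itself kept inactive by phosphorylation under survival signals. In the ovary the family is best known from follicle atresia, in which granulosa cells die by apoptosis, and much of its control acts on protein, which transcript arrays do not read.

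Cumulus cells of large follicles had more BAX transcript than those of small follicles, 1.62-fold on average, while BAK1, the other effector, did not pass the test. Small increases in BAD and in the guardian BCL2L2, 1.27-fold each, passed the threshold by a narrow margin. None of the 5 BCL2 probe sets, nor BCL2L1, BCL2A1 or MCL1, passed. By limma, at a Benjamini-Hochberg adjusted p of 0.05 over the whole table, 3 of the 12 member probe sets were higher in large follicles and 0 were lower (25% called), against 12.9% called among all probe sets in either direction, 5.72% higher and 7.16% lower. At an unadjusted p under 0.05 the count was also 3. By gene, 3 of 8 were called, 37.5% against 15.4% of all genes read from their brightest probe set. Only BAX stayed past the threshold when any 1 of the 6 arrays was left out, so the count was then 1 of 12, with 6.72% to 10.3% of all probe sets called. The median difference of the 12 was 0.13 log2 units, against 0.01 for all probe sets, and their median size was 0.175 against 0.153.

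**Figure D1:**
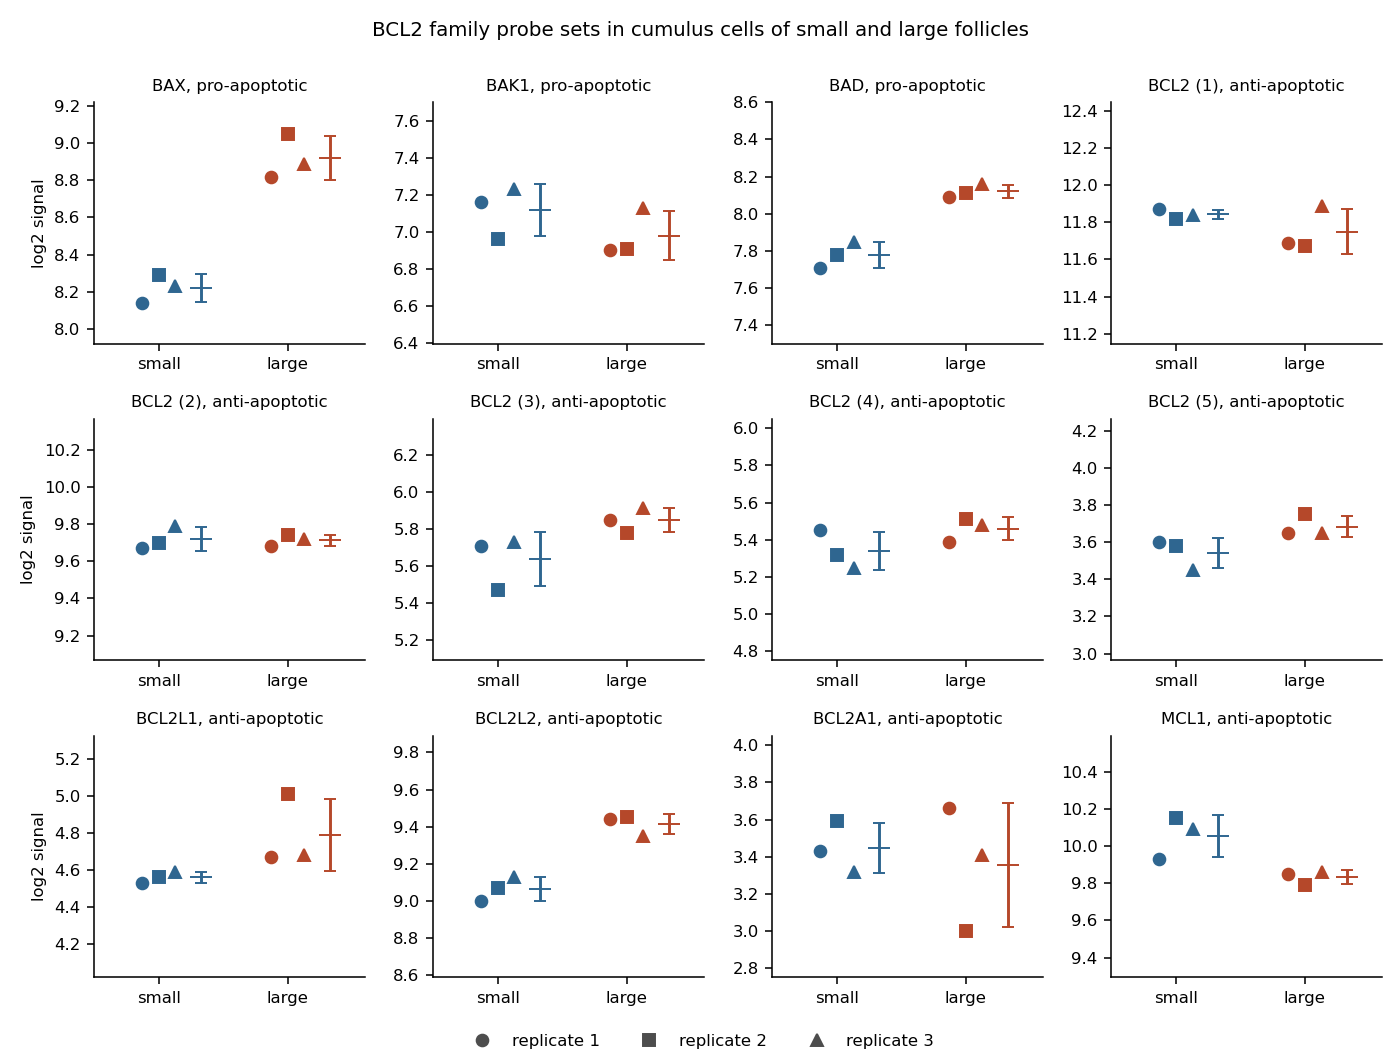
Log2 signal (vertical axes, each spanning the same range) of the 12 BCL2 family probe sets in the 3 small-follicle (blue) and 3 large-follicle (red) arrays, with the mean and SD of each group at its right and BCL2 probe sets numbered by mean signal. BAX, BAD and BCL2L2 lie higher in all 3 large-follicle arrays than in any small-follicle array, and MCL1 lies lower. BCL2L1 and BCL2 probe sets 3 and 5 also lie higher without overlap, by gaps of 0.05 to 0.08, and did not pass.

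Several features of the arrays bear on all of these values. Array medians lay between 5.64 and 5.68, and correlations between arrays were 0.9927 to 0.9948 within groups and 0.9817 to 0.9879 across them. All 11 granulosa and cumulus markers were measured, with a mean signal of 10.89 to 11.04 in large-follicle and 10.34 to 10.50 in small-follicle arrays, and 0 of them had a mean under 3.83, the lower quartile over all probe sets. Of these 11, 6 were called higher and 1 lower in large follicles (63.6% called, against 15.4% of all genes). Of 9 oocyte markers 6 were measured, at means of 3.93 to 4.22 over all arrays, with 3 under that quartile and 0 called. All 15 measured leukocyte markers were higher in sign in large follicles, 2 of them called (CORO1A and LCP1), with list means of 4.48 to 5.28 against 4.17 to 4.69. Of 4 theca, 5 endothelial, 6 stromal and 3 erythroid markers measured, 1 passed, the endothelial receptor TEK, which was lower in large follicles. List means, large against small, were 5.8 to 6.4 against 5.5 to 5.8 (theca) and 6.0 to 6.8 against 6.0 to 7.2 (stroma). They were 3.9 to 4.0 against 3.8 to 3.9 (endothelial) and 4.1 to 4.4 against 4.1 to 4.3 (erythroid). Group means were 9.41 against 9.38 for INSL3 (theca) and 8.02 against 8.09 for LUM (stroma). In stroma, PDGFRA at 8.40 against 7.03 and COL1A2 at 4.58 against 5.66 did not overlap between groups. Other PDGFRA probe sets differed by 0.07 and -0.06, and another COL1A2 probe set by -1.29. By their brightest probe sets, LHCGR (theca), VWF and PECAM1 (endothelial) and HBA (erythroid) did not overlap either. All of these leaned higher in large follicles and did not pass. Groups did not overlap in 30.9% of all probe sets. The single marker genes given here were named after their values were seen. The 3'/5' index, the mean log2 excess of 3' over 5' probe sets of 6 control transcripts and a sign of RNA quality, was 1.77 to 2.15 in large-follicle arrays and 2.16 to 2.68 in small-follicle arrays, which is -0.48 as large minus small (p = 0.1 by a 2-sided exact permutation test, which 3 against 3 arrays cannot go below). RMA gives no detection call, so no marker can be called absent. In pooled cells, fewer cells of a type and less RNA per cell cannot be told apart.

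Among the effectors, BAX read 8.82, 9.05 and 8.89 in large-follicle arrays 1, 2 and 3, and 8.14, 8.29 and 8.23 in the small-follicle ones. The groups did not overlap, and the lowest large-follicle array lay 0.53 above the highest small-follicle array. The difference was 0.70 ± 0.10 (log2, SE, n = 3 each; limma adjusted p = 0.00462), with a 95% interval of 1.38- to 1.91-fold. In size it lay at the 93.9th percentile of all probe sets. Leaving out 1 array at a time gave 0.64 to 0.75, with adjusted p between 0.014 and 0.019. With the 3'/5' index as a covariate BAX differed by 0.57 ± 0.15 and did not pass (limma adjusted p = 0.117), in a fit where 0.895% of all probe sets were called. With the leukocyte markers as a covariate it differed by 0.75 ± 0.13 (limma adjusted p = 0.0236). The index itself did not overlap between groups (1.77 to 2.15 against 2.16 to 2.68). The fit with the index therefore cannot fully part RNA quality from follicle size, and the part of RNA quality in the difference was not tested further. BAX overlaps TULP2 in the RefSeq annotation of ARS-UCD2.0, and whether the BAX probe set also reads that gene was not tested.

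BAK1 read 6.90, 6.91 and 7.13 in large-follicle arrays and 7.16, 6.96 and 7.23 in small-follicle arrays. These groups overlapped. The difference of -0.14 ± 0.11 did not pass (limma adjusted p = 0.514), and its 95% interval of -0.40 to 0.13 does not contain the difference measured for BAX. The difference between BAX and BAK1 itself was not tested.

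BAD, the BH3-only protein on the arrays, read 8.09, 8.11 and 8.16 in large follicles and 7.71, 7.78 and 7.85 in small ones. The 3 large-follicle arrays lay within a narrow span, 0.24 above the highest small-follicle array. BAD rose by 0.34 ± 0.09 (limma adjusted p = 0.044, 1.27-fold, 95% interval 1.10 to 1.46). The call was lost without any 1 of the 6 arrays (0.31 to 0.38, adjusted p 0.0646 to 0.128), with the 3'/5' index as a covariate (0.26 ± 0.14) and with the leukocyte markers (0.34 ± 0.12). BAD overlaps GPR137 in the RefSeq annotation of ARS-UCD2.0, and GPR137 differed by 0.14 ± 0.10 without passing. Whether the BAD probe set also reads that gene was not tested.

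Of the guardians, BCL2L2 was the only one called. It read 9.44, 9.45 and 9.35 in large-follicle arrays and 9.00, 9.07 and 9.13 in small-follicle arrays, with no overlap and a gap of 0.22. BCL2L2 rose by 0.35 ± 0.09 (limma adjusted p = 0.0425, 1.27-fold, 95% interval 1.10 to 1.47). As with BAD, no fit with 1 array left out kept the call (0.31 to 0.38, adjusted p 0.0627 to 0.129), and it was also lost after shifting the arrays to equal medians (0.34, adjusted p = 0.0502), with the index (0.26 ± 0.14) and with the leukocyte markers (0.30 ± 0.12). The gene overlaps PABPN1, a poly(A)-binding protein gene, in the same annotation, and PABPN1 differed by -0.11 ± 0.10. Whether the 2 transcripts share reads on this probe set was not tested.

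MCL1, a short-lived guardian that cells must keep making, read 9.85, 9.79 and 9.86 in large follicles against 9.93, 10.15 and 10.09 in small ones. It was the member whose large-follicle arrays all lay below the small-follicle arrays, by a gap of 0.07. The difference of -0.22 ± 0.10 did not pass (limma adjusted p = 0.187, 95% interval -0.45 to 0.001). BCL2L1, the BCL-XL gene, read 4.67, 5.01 and 4.68 against 4.53, 4.56 and 4.59. Its groups were apart by 0.08, and large-follicle replicate 2 stood above the rest. The difference of 0.23 ± 0.12 did not pass (limma adjusted p = 0.259), was 0.12 without that array and was 0.04 ± 0.17 with the index as a covariate.

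BCL2A1, a guardian best known from blood cells, read 3.66, 3.00 and 3.41 in large-follicle arrays and 3.43, 3.59 and 3.32 in small-follicle arrays. These signals lie under the lower quartile of all means, the groups overlapped, and the lowest value was that of large-follicle replicate 2. The difference was -0.09 ± 0.17 (limma adjusted p = 0.796), was 0.09 without that array, and was 0.30 ± 0.22 with the index. The leukocyte markers had the opposite sign, and their part in the BCL2A1 values was not tested beyond the fit with them as a covariate, in which BCL2A1 read -0.19 ± 0.21.

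The 5 BCL2 probe sets did not read alike. The brightest, drawn from CK838168, read 11.69, 11.67 and 11.89 in large-follicle arrays and 11.87, 11.82 and 11.84 in small-follicle arrays, a difference of -0.09 ± 0.10 (limma adjusted p = 0.619). The next, from CK848297, read 9.68 to 9.74 against 9.67 to 9.79, a difference of -0.01 ± 0.09. Both overlapped between groups. The other 3 leaned higher in large follicles without passing. The one from CB442182, which can bind several transcripts, differed by 0.21 ± 0.11 (limma adjusted p = 0.254), and the pair from U92434 by 0.12 ± 0.10 and 0.14 ± 0.09. Their mean signals ran from 3.61 to 11.80, so which of them reads the BCL2 transcript best cannot be told from these values, and the widest of the 5 intervals reaches from -0.03 to 0.45.

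**Figure D2:**
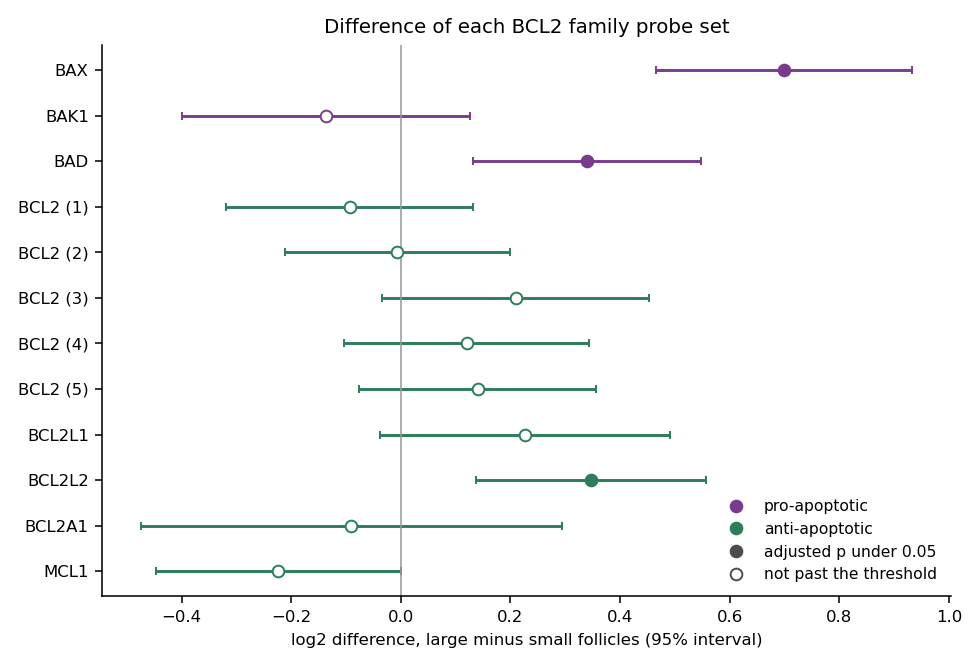
Log2 difference (large minus small follicles) of each BCL2 family probe set with its 95% interval from limma; purple marks pro-apoptotic and green anti-apoptotic genes, and filled points passed at an adjusted p of 0.05. BAX lies at 0.70, BAD and BCL2L2 near 0.35, and the intervals of the other 9 probe sets include 0.

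Groups did not overlap in 7 of the 12 probe sets, 6 higher and 1 lower in large follicles, against 30.9% of all probe sets. Of these 7, 4 did not pass the test.

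Set against each other by class, 2 of 3 pro-apoptotic genes and 1 of 5 anti-apoptotic genes were called, all higher in large follicles, where 15.4% of all genes were called and 7.08% called higher. Of these 3 calls, BAX alone held with any 1 array left out. For each array the deviation of a gene from its own mean over the 6 arrays was averaged over the class, with the brightest probe set for BCL2. The pro-apoptotic mean was 0.08, 0.17 and 0.20 in large-follicle arrays and -0.19, -0.18 and -0.09 in small-follicle arrays, a difference of 0.30 with no overlap. The anti-apoptotic mean was 0.05, -0.03 and 0.03 against -0.06, 0.03 and -0.02, a difference of 0.03 with overlap. The pro-minus-anti difference between groups was 0.27, and 0.23 to 0.32 with 1 array left out. These are descriptions with no test, since the members were chosen.

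The class difference depended on BAX. Without it, an alternative chosen after seeing the data, the pro-apoptotic mean differed by 0.10, the groups overlapped, and the pro-minus-anti difference was 0.07. With the 3'/5' index as a covariate the pro-minus-anti difference was 0.15.

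The ratio of BAX to a guardian is a common summary of the balance between both sides. Relative to the mean of all arrays, BAX minus BCL2 from its brightest probe set, CK838168, was 0.36, 0.61 and 0.23 in large follicles and -0.50, -0.30 and -0.38 in small ones, a shift of 0.79. With the other BCL2 probe sets, set beside it after the values were seen, the shift was 0.49 to 0.71, again with no overlap. BAX minus MCL1 was 0.35, 0.64 and 0.41 against -0.42, -0.49 and -0.49, a shift of 0.92. The shifts were 0.47 against BCL2L1 and 0.35 against BCL2L2. In these 4 pairings the groups did not overlap, and all 4 share the BAX values, whose own difference was 0.70. Each shift is the BAX difference less that of the guardian, so the order of the shifts only restates the guardians' own differences. The shift against BCL2L2, the guardian that also rose, was by this arithmetic the smallest of the 4. No weight rests on the pairing with BCL2A1, whose signal is under the lower quartile of all probe sets and whose difference changes sign without 1 array.

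**Figure D3:**
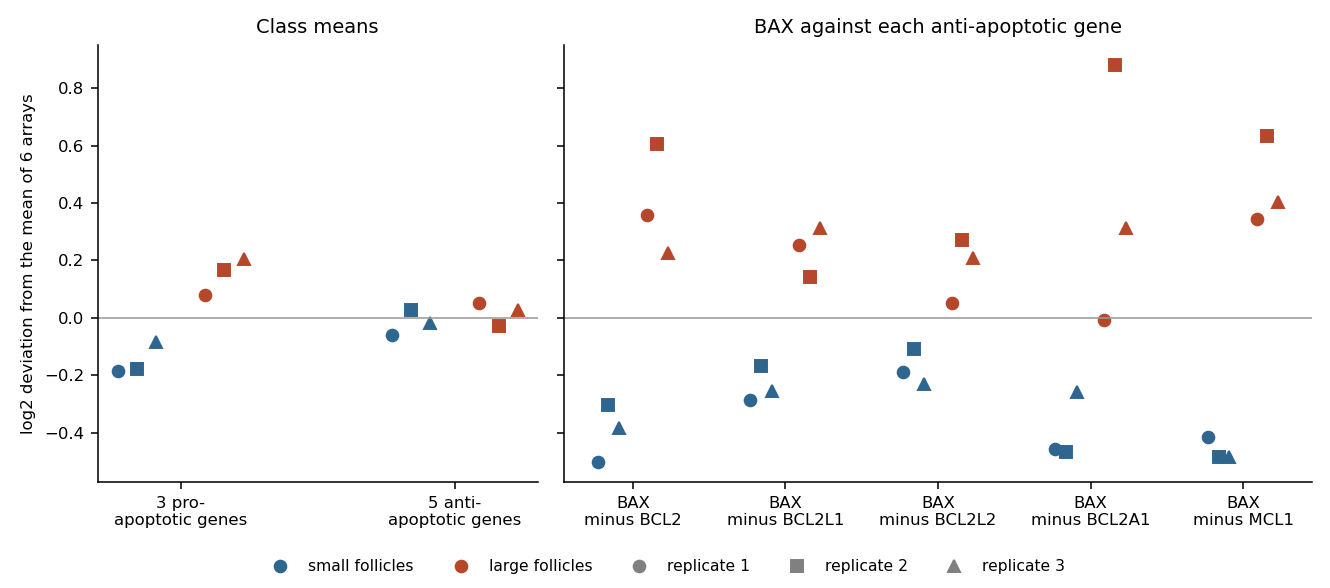
Left, mean log2 deviation of the 3 pro-apoptotic and 5 anti-apoptotic genes from their means over the 6 arrays; right, the deviation of BAX minus that of each anti-apoptotic gene, with small-follicle arrays in blue, large-follicle arrays in red and replicates by symbol. The pro-apoptotic mean separates the groups by 0.30 and the anti-apoptotic mean by 0.03, and BAX separates the groups against BCL2, MCL1, BCL2L1 and BCL2L2; BCL2A1 is drawn but lies under the lower quartile of signal.

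The other genes of the pathway were read from 4 lists, each gene by its brightest probe set. Of 82 listed genes 50 were measured, and 8 rose, 2 fell and 40 did not pass (20% called, against 15.4% of all genes, 7.08% higher and 8.3% lower). Their median difference was 0.04, against 0.01 for all genes. With 1 array left out, 4 to 6 rose and 0 or 1 fell.

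Among other BCL2 family and BH3-bearing genes, 7 of 15 were measured, 2 rose and 0 fell (median difference -0.10). BNIP3, a mitochondrial protein that recruits autophagy and is induced by low oxygen, rose by 1.43 ± 0.12 (12.997 ± 0.156 against 11.563 ± 0.136, SD, n = 3 each; limma adjusted p = 0.000906), 2.70-fold. Its other probe sets read 2.20 ± 0.22 and 1.11 ± 0.09, so the size depends on the probe set, and all 3 passed. The call held in all 16 alternative fits, the index included (1.14 ± 0.14). BNIP3L, its close relative, rose by 0.56 ± 0.10 (limma adjusted p = 0.0122) and kept the call without any 1 array, but not with the index (0.38 ± 0.15) or the leukocyte markers (0.56 ± 0.14). BOK, an effector related to BAX and BAK1, differed by -0.16 ± 0.13 and did not pass. A second BOK probe set had the opposite sign, at 0.21 ± 0.10 without overlap between groups, and did not pass either. BNIP1 was lower without overlap, at -0.42 ± 0.13 (limma adjusted p = 0.0644), and did not pass. A second BNIP1 probe set read 0.19 ± 0.12.

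Among caspases, their inhibitors and genes of mitochondrial release, 15 of 23 were measured, 1 rose and 1 fell (median difference 0.04). VDAC2, an outer membrane channel that holds BAK1, rose by 0.48 ± 0.10 (limma adjusted p = 0.0202). Its call, though not its direction, was lost without large-follicle replicate 2 (0.43), small-follicle replicate 1 (0.43) or small-follicle replicate 2 (0.50). It was also lost with either covariate (0.28 ± 0.14 with the index, 0.51 ± 0.14 with the leukocyte markers). DFFB, the caspase-activated nuclease, fell by 0.42 ± 0.09 (limma adjusted p = 0.0208), and kept the call only without small-follicle replicate 1 among the 6 fits with 1 array left out (differences -0.46 to -0.39). With the index (-0.51 ± 0.14) or the leukocyte markers (-0.45 ± 0.12) DFFB did not pass. A second DFFB probe set read -0.11 ± 0.13 and did not pass. The apoptosome scaffold APAF1 at -0.01 ± 0.10, CASP9 at -0.13 ± 0.11 and CASP6 at -0.24 ± 0.10 did not pass. HTRA2 at 0.37 ± 0.12 (limma adjusted p = 0.0792) and DIABLO at 0.31 ± 0.11 (limma adjusted p = 0.118) did not pass either. Both are mitochondrial proteins that oppose the caspase inhibitors once released. DFFA at -0.27 ± 0.10 did not pass, and its other probe sets read 0.06 and -0.31. Groups did not overlap for HTRA2 and DIABLO, which leaned higher in large follicles, nor for CASP6 and DFFA, which leaned lower. Of all probe sets, 30.9% did not overlap between groups. A second HTRA2 probe set differed by 0.05. The inhibitors XIAP at -0.15 ± 0.10 and BIRC6 at 0.04 ± 0.11 did not pass, though another BIRC6 probe set was called at 0.36 ± 0.09. The signals of APAF1 (3.20 in large and 3.21 in small follicles) and XIAP (3.03 and 3.18) lie under the lower quartile of all means, 3.83, which limits what they can show. These genes that did not pass, and BOK and BNIP1 above, were named after their values were seen.

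Among death receptors and adaptors, 12 of 16 were measured, 2 rose and 1 fell (median difference 0.20). The receptor TNFRSF21 rose by 1.16 ± 0.31 (limma adjusted p = 0.043), with a wide spread in large follicles (7.390 ± 0.676, SD, n = 3). It read 0.81 without large-follicle replicate 1, and of the 6 fits with 1 array left out kept the call only without large-follicle replicate 2 (1.49). With the leukocyte markers as a covariate TNFRSF21 differed by 0.67 ± 0.25 and with the index by 1.39 ± 0.52. It passed in neither fit (limma adjusted p = 0.182 and 0.209), nor under another prior. TNFRSF1A, the main TNF receptor, rose by 0.42 ± 0.11 (limma adjusted p = 0.0468) and FAIM, an inhibitor of FAS-induced death, fell by 0.65 ± 0.16 (limma adjusted p = 0.0348). TNFRSF1A kept its call only without small-follicle replicate 3 (0.51) and FAIM only without large-follicle replicate 2 (-0.81), of the 6 fits each. With the index as a covariate TNFRSF1A read 0.17 ± 0.15 and FAIM -1.04 ± 0.20, neither past the threshold. With the leukocyte markers TNFRSF1A read 0.45 ± 0.15 and FAIM -0.73 ± 0.21, and again neither passed. TNFRSF1A also lost its call after shifting the arrays to equal medians.

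Among upstream regulators, 16 of 28 were measured, 3 rose and 0 fell (median difference 0.003). DDIT3 (CHOP), a stress-induced transcription factor that can repress BCL2 and induce BCL2L11, rose by 1.22 ± 0.16 (8.333 ± 0.258 against 7.113 ± 0.217, SD, n = 3 each; limma adjusted p = 0.0032). The call held without any 1 array (1.07 to 1.34) and was lost with the index (1.02 ± 0.25). PIM2 and PIM1, kinases that phosphorylate BAD, rose by 0.49 ± 0.09 (limma adjusted p = 0.0122) and 0.39 ± 0.09 (limma adjusted p = 0.0294). PIM2 kept its call without any 1 array. It did not pass with the index (0.59 ± 0.14) or the leukocyte markers (0.52 ± 0.12), where the difference was no smaller and the SE was larger. PIM1 did not pass in any of the 6 fits with 1 array left out (0.35 to 0.42), nor with the index (0.38 ± 0.15) or the leukocyte markers (0.39 ± 0.13).

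**Figure D4:**
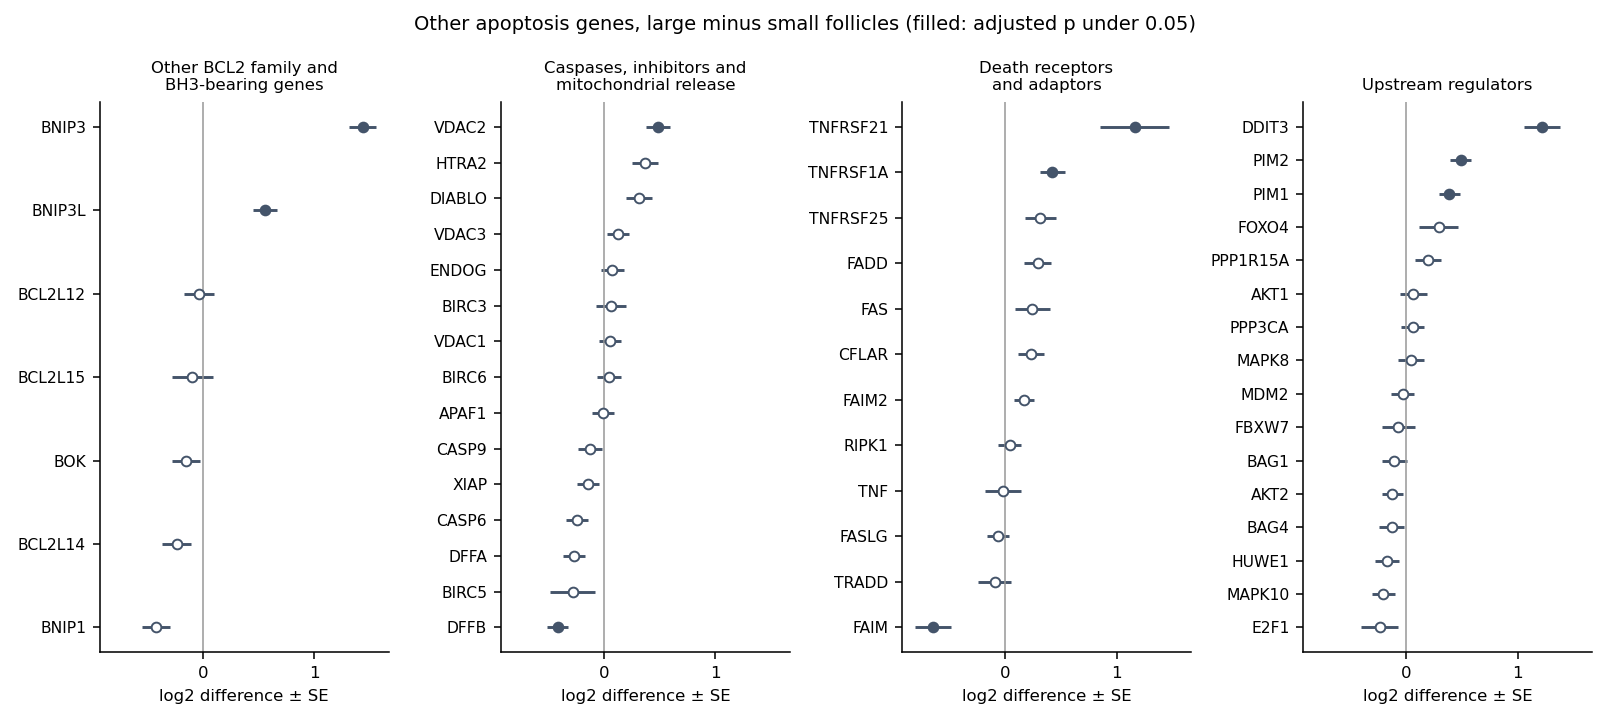
Log2 difference (large minus small follicles) ± SE from limma of the 50 measured genes of 4 apoptosis lists, by the brightest probe set of each gene, with filled points past an adjusted p of 0.05. BNIP3 at 1.43, DDIT3 at 1.22 and TNFRSF21 at 1.16 stand farthest to the right, and FAIM at -0.65 farthest to the left.

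The genes whose signal was most like that of a called member over the 6 arrays were ranked by Pearson correlation. For BAX these were SLC25A28, a mitochondrial iron carrier (r = 0.9998, difference 1.22), MRPS6 (0.998, 0.50), ATG101 (0.998, 0.72) and RAD52 (0.997, 0.41). For BAD they were INPP1 (0.998, 1.46), PPP1R3C (0.997, 2.60), NDRG1 (0.996, 2.71) and AP1M2 (0.996, 0.21). For BCL2L2 they were SINHCAF (0.999, 0.89), the glycolytic enzyme PFKP (0.998, 1.36), LAPTM4A (0.996, 0.31) and PCOLCE (0.996, 1.40). Such values are descriptions: the arrays form 2 groups, and 624, 582 and 609 probe sets correlated above 0.95 with BAX, BAD and BCL2L2.

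**Figure D5:**
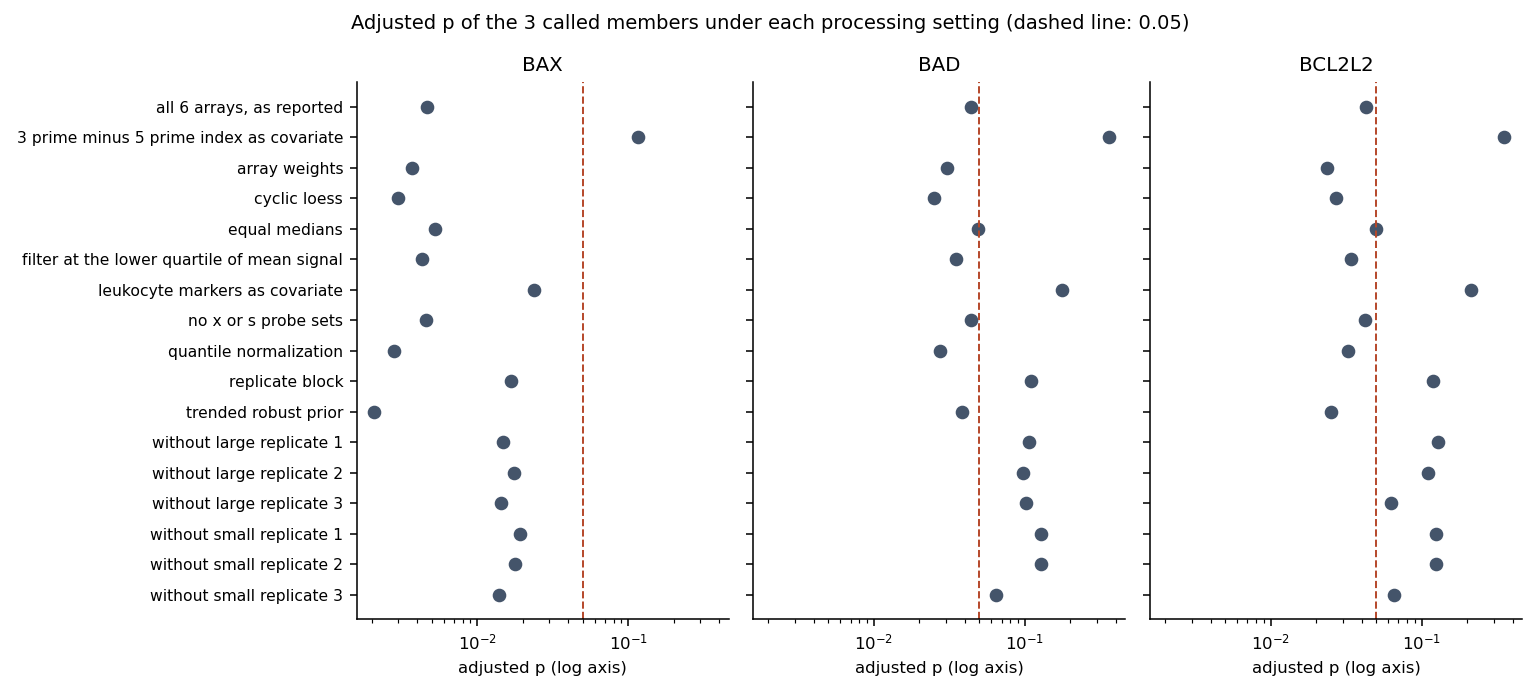
Benjamini-Hochberg adjusted p from limma (log axis) of BAX, BAD and BCL2L2 under each processing setting, with the threshold of 0.05 as a dashed line. BAX passes everywhere except with the 3'/5' index as a covariate, at 0.117, while BAD and BCL2L2 cross the line whenever 1 array is left out.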

How the data were processed

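The authors deposited log2 signals per probe set for 6 Affymetrix bovine arrays, with RMA as their method per the submitters' notes on processing; no source used here gives its software, version or settings. Tests exclude 112 control probe sets. The annotation gave 1 symbol to 13292 probe sets, several to 86 and none to 10638; gene identifiers were matched to RefSeq (ARS-UCD2.0) for names, overlaps and neighbours only, 13263 of them. No coordinates and no sequences are given.

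Differences are large minus small follicles, from limma 3.58.1 (R 4.3.3; lmFit, then eBayes, without a block; total degrees of freedom 8.28), 2-sided, with Benjamini-Hochberg adjustment over 24016 probe sets at 0.05. The members, lists and tests were chosen with earlier results of these data known. All members are named; from each list the called genes, at most the 4 with the smallest p, and per called member the 4 most correlated genes. The number of arrays limits the precision. Alternatives were omitting each array, blocking on the replicate number, a filter, 3 scalings, array weights, another prior, omitting x and s probe sets (which can bind several transcripts), 2 covariates and a threshold of 0.1. The procedure was tested on simulated data. Titles share replicate numbers, but same-numbered arrays did not deviate together. Figures used python 3.11.15 and matplotlib 3.10.9.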

Additional observations from a re-analysis of the deposited data

How the results depend on the processing

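Of 189 member differences under alternatives, 164 kept their direction and side of the threshold, 20 lost the call, 0 gained one and 5 changed sign. The sign changes were in BCL2 from CK848297 (0.014 under cyclic loess, and -0.032 to 0.028 without 1 array, positive without large-follicle replicate 1 or small-follicle replicate 3) and BCL2A1 (0.30 with the 3'/5' index, and -0.24 to 0.088 without 1 array, positive without large-follicle replicate 2); the cause was not tested. Called members numbered 3, but 1 with the leukocyte markers as a covariate, 0 with the index and 1 to 1 without 1 array. List genes (8 higher, 2 lower) numbered 1 and 0 with the index, 2 and 0 with the leukocyte markers, and 4 to 6 and 0 to 1 without 1 array. All probe sets called (1374 higher, 1720 lower) numbered 99 and 116 with the index, 592 and 684 with the leukocyte markers, and 787 to 1142 and 828 to 1337 without 1 array. The pro-apoptotic mean was 0.21 and pro minus anti 0.15 with the index, and 0.10 and 0.068 without BAX. The anti-apoptotic mean was 0.01 to 0.06 without 1 array.

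With the replicate number as a block, 1 of 12 member probe sets and 5 higher and 0 lower list genes were called. Among all probe sets 8.18% were called in either direction in that fit, 1034 of them lower. BAX kept its call (adjusted p = 0.017 by limma), while BAD (0.110), BCL2L2 (0.119), PIM1 (0.0896) and DFFB (0.0693) did not pass, at the same differences. Deviations of same-numbered arrays correlated at -0.002, -0.05 and -0.34, and 0 of 6 arrays correlated best with their own number. Whether same-numbered pools were collected together cannot be told from these values. Signals under the lower quartile (BCL2A1, the dimmest BCL2 probe set) limit what can be read there.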

Other observations

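The protein-coding genes next to the members in the RefSeq annotation of ARS-UCD2.0 were read as well, and those given here were chosen after their values were seen. The neighbours of BAX are DHDH and FTL, the ferritin light chain gene, which differed by 0.36 ± 0.10 and 0.34 ± 0.10 and did not pass (limma adjusted p = 0.057 and 0.0557). TULP2, which overlaps BAX, had no probe set with its single symbol and so was not measured. ZBTB9, next to BAK1, was lower in large follicles at -0.48 ± 0.11 (limma adjusted p = 0.026). TPX2, a spindle gene next to BCL2L1, differed by -0.80 ± 0.24 and did not pass (limma adjusted p = 0.0687).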
